A study of Mus musculus with 8 samples.

Results

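The genes described here encode the proton pump that acidifies lysosomes, the cathepsins that digest protein inside them, and 3 other proteins linked to lysosomes. They were picked by name alone from the table of raw counts: mouse symbols that start with Atp6v or Atp6ap, symbols made of Cts and 1 further letter, and Lamp1, Lamp2 and Lgals3. The names matched 49 genes, of which 41 had a count in at least 1 library, out of 55414 rows in all, and 34 of the 41 were abundant enough to be tested. The data are RNA-seq counts of Kupffer cells, the macrophages that reside in the liver, which had been sorted by flow cytometry out of livers of C57BL/6J mice of wild-type genotype. Mice had undergone caecal ligation and puncture (CLP), which lets gut contents leak into the abdomen and causes sepsis, or a sham operation (Sham), and their livers were taken 2 h later. There were 4 libraries in each group, no other allele or agent is named for either, and the study's stated subject is the mechanism of hemolysis in sepsis. The labels give neither the age of the mice nor the sorting gate, nor whether 1 library stands for 1 mouse, so the p-values reflect only how far these libraries spread, which may be technical.

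The vacuolar ATPase is a rotary pump. Its cytosolic V1 sector hydrolyses ATP at the A and B subunits, turns a central stalk of D and F, and is held by outer stalks of C, E, G and H, while its V0 sector lies in the membrane, where a ring of c and c″ subunits carries protons past subunit a. Both sectors can come apart and reassemble, and the acid they make activates the cathepsins; in macrophages this machinery digests engulfed microbes, dead cells and red blood cells. Many genes of the lysosome carry an E-box in their promoter, the core of an element bound by the MiT/TFE family of transcription factors.

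Library totals ran from 23311897 to 28724875 counts. Levels below are CPM, counts relative to library size, scaled by TMM (trimmed mean of M-values); the TMM factors were 0.801 to 0.837 in CLP and 1.16 to 1.28 in Sham. Because the factors of the groups did not overlap, scaling by total counts alone moved the median log2 fold change of all genes by -0.56, from -0.040 to -0.60, and each direction below is given with its value under that scaling (the total-count value) where the call ends or the sign turns. CLP replicate 1 stood apart: over the genes tested its log2 CPM correlated at 0.968 to 0.972 with the other 3 CLP libraries, which correlated at 0.986 to 0.987 with each other. It was also nearer to Sham, correlating at 0.9162 to 0.9443 with the Sham libraries, against 0.8805 to 0.9132 for the other 3 CLP libraries. Kupffer cell markers were abundant in every library, with Clec4f at 7999 to 10147 CPM in CLP and 6309 to 8022 CPM in Sham. Their sum was higher in every CLP library (36817 to 48044 CPM) than in any Sham library (27994 to 36099 CPM), and 5 of 12 were called higher and none lower (median 0.35 on the log2 scale; none higher and 2 lower with total-count scaling, with a median of -0.20). The 9 neutrophil markers tested were all called higher in CLP (9 of 14 listed), and the summed level of the list was 201 to 567 CPM in CLP and 82.6 to 120.3 CPM in Sham. Most of this sum in every library was Csf3r, at 148, 237, 318 and 283 CPM in CLP and 114, 95.5, 108 and 79.9 CPM in Sham (log2 fold change 1.31). The median log2 fold change of the 9 tested markers was 5.14: S100a8 was at 18.9 to 86.5 CPM in CLP and 0.764 to 1.65 CPM in Sham, S100a9 at 20.4 to 99.3 and 0.580 to 2.32 CPM, and Ly6g, which was not tested, had 3, 3, 15 and 10 counts in CLP and 0 in every Sham library. Of the other listed markers not tested, Camp had 2, 0, 13 and 24 counts in CLP and 0 in every Sham library. Elane had 0 in every CLP library and 0, 6, 0 and 3 in Sham. Prtn3 had 2, 1, 4 and 3 in CLP against 3, 9, 18 and 3 in Sham, and Mpo 3, 0, 0 and 1 against 0, 2, 2 and 0. With TMM scaling, summed markers did not overlap between the groups for hepatocytes (4647 to 5934 CPM in CLP, 3367 to 4627 CPM in Sham), platelets (351 to 482 against 247 to 331, with Gp1bb at 0 throughout), stellate cells (70.3 to 103 against 53.7 to 65.5), B cells (78.5 to 93.6 against 66.0 to 78.1) and dendritic cells, which were lower in CLP (10.9 to 17.2 against 22.5 to 41.5). Those of T and NK cells (21.3 to 32.9 against 11.5 to 22.2), monocytes (248 to 403 against 195 to 323) and liver endothelium (602 to 635 against 532 to 649) overlapped. Even so, 1 of 5 tested monocyte markers was called higher (F13a1, 1.95 on the log2 scale) and 0 lower. Of 8 endothelial markers 3 were called higher (Kdr 0.77, Clec4g 0.66 and Cldn5 2.24) and 0 lower. With total-count scaling each of these 2 lists had 1 higher and 3 lower. Most of the dendritic cell sum in every library was Clec9a, at 6.70 to 11.4 CPM in CLP and 18.0 to 35.5 CPM in Sham. Clec9a was called lower (log2 fold change -1.58), while Xcr1 and Zbtb46, also tested, had no call (0.013 and -0.13). The sums were not taken with total-count scaling. Under that scaling hepatocyte markers had 0 called higher and 4 lower (median log2 fold change -0.30, against 0.25 with TMM). Stellate cell markers had 0 called either way (median -0.067, against 0.48). B cell markers had 6 higher and 2 lower, platelet markers 6 and 1, and dendritic cell markers 0 and 2. Some sums rest on 1 gene that was not called, such as Cd22 for B cells and Cd4 for T cells, and beside these 6 of 8 B cell markers were called higher and 1 lower (median 2.59), 2 of 3 tested T and NK cell markers were higher (Lck by 3.43 and Gzmb by 3.17 on the log2 scale), and 6 of 7 tested platelet markers were higher (median 3.03). The part of these other cells in the values below was not tested, and in such bulk samples fewer cells of a type and less RNA per cell cannot be told apart.

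The promoters are shown first because the E-box is a sequence feature that the naming rule did not use. Lysosomal genes are already known to carry E-boxes often, so the share below is a description and no independent result. Of the 34 genes tested, 25 matched RefSeq's promoter table (assembly GRCm38.p6), which covers 250 bases before to 50 bases after a transcript's start and held 29 promoters for them. The motif CACGTG, which reads the same on both strands, was in 9 of the 29 promoters (31.0%), against 7.15% of all 32851 promoters of that length and 9.68% of those of genes tested here. Its longer form TCACGTG, searched on both strands and always overlapping a CACGTG, was in 24.1% of the members' promoters, 3.77% of all and 5.77% of those of genes tested. TGANTCA, the AP-1 motif, was in 3.45% of the members' promoters, 7.81% of all and 5.39% of those of genes tested. A match is a stretch of letters and no evidence of binding. The 150 bases directly before the start are printed 5′ to 3′ on the coding strand for Lamp1 and Atp6v0b, with several E-boxes close to the start, for Ctsd and Atp6v1a with E-boxes further away, and for Atp6v1e1, which has none in its window and had the largest fold change of the 34 members tested; capitals mark CACGTG with any T before it or A after it.
Lamp1: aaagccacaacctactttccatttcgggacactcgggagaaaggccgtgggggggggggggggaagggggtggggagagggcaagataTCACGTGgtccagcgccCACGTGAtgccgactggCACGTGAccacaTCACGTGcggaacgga
Atp6v0b: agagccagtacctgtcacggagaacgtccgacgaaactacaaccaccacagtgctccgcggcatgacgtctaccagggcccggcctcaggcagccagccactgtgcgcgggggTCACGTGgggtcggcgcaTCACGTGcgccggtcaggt
Ctsd: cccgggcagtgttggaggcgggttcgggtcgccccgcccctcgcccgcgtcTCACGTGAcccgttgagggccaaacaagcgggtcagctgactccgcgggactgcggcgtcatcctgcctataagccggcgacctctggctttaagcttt
Atp6v1a: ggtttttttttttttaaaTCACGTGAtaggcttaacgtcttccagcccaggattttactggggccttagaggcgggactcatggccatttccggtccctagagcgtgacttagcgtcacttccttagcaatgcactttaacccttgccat
Atp6v1e1: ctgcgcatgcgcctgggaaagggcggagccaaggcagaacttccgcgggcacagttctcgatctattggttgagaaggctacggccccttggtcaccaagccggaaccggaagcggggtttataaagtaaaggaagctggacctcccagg

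The Lamp1 window is chr8:13159011-13159160 on the plus strand and holds 4 E-boxes, whose first bases lie 61, 45, 28 and 15 bases before the start. The Atp6v0b window, chr4:117887330-117887479 on the minus strand, holds 2, at 36 and 18 bases. Ctsd has 1 E-box at 98 bases in the window shown, chr7:142387828-142387977 on the minus strand, and another at 245 bases. That of Atp6v1a is 131 bases before the start in chr16:44139260-44139409, minus strand, and the Atp6v1e1 window is chr6:120822699-120822848, minus strand. Atp6v0d1, Atp6v0e, Ctsa, Ctsf and Ctsl completed the 9 genes with an E-box. Of these 9 genes, 7 were called higher in CLP and none lower (median log2 fold change 0.52), and of the 16 tested genes whose promoters lack the motif 11 were called higher and 1 lower (median 0.48). The medians lay close together, and the difference was not tested.

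Over all genes, 24.9% were called higher and 29.5% lower in CLP (edgeR, adjusted p under 0.05). Of the 34 lysosomal genes tested, 23 were called higher, 2 lower and 9 neither (median log2 fold change 0.51). With total-count scaling 8 were higher and 9 lower (median -0.037), against 11.7% and 56.6% of all genes, and with a correction for GC content 21 were higher and 2 lower, against 26.2% and 27.4%. The groups did not overlap in the 23 and the 2 called genes, against 22.1% of all genes higher without overlap and 27.3% lower. The 8 genes higher under both scalings were 6 V1 subunits, Atp6v0c and Atp6ap2. These counts describe the list and do not test it.

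**Figure D1:**
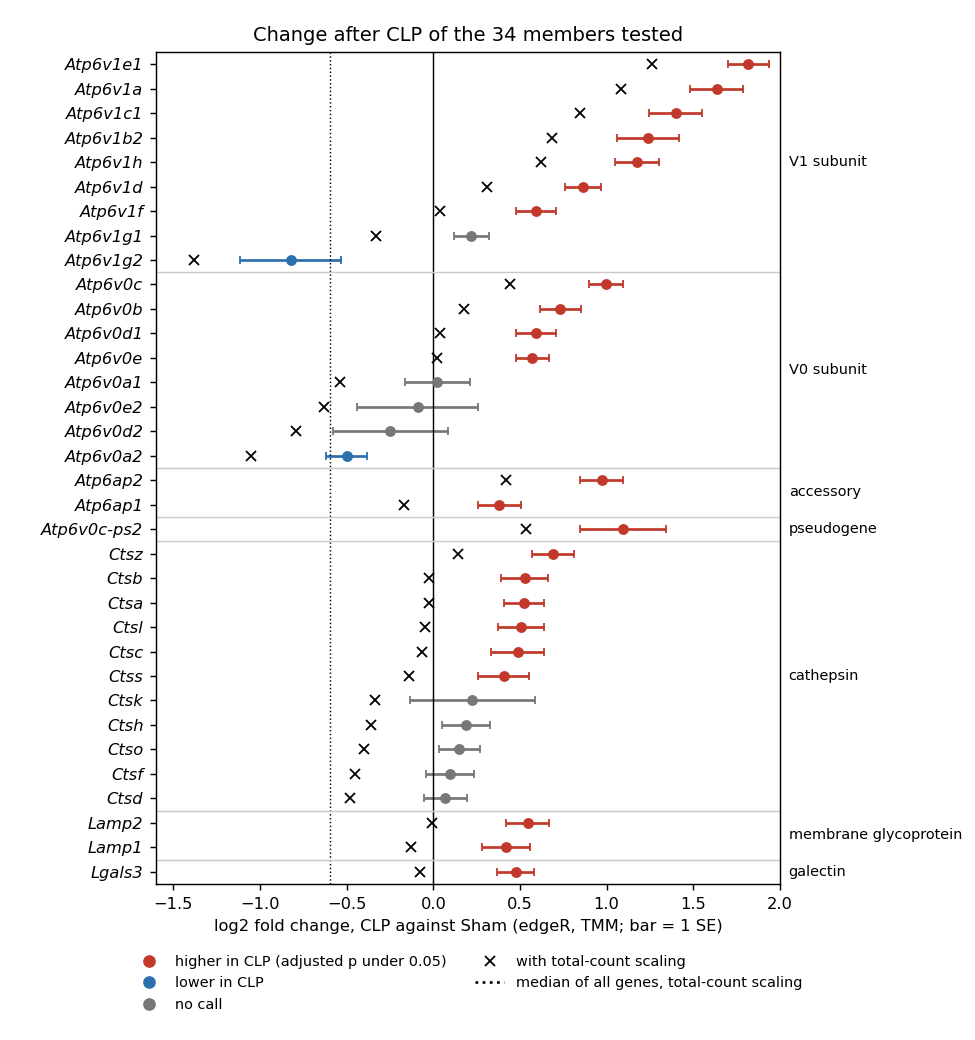
Log2 fold change of each of the 34 genes tested, CLP against Sham, with bars of 1 SE, grouped by role; crosses give the same gene with total-count scaling and the dotted line the median of all genes under it (-0.60). Subunits A, B2, C1, E1 and H of V1 lie furthest to the right, and all 11 cathepsins lie between 0.069 and 0.69, with 10 of their 11 crosses left of 0.

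Of the tested members, the largest changes were among genes of the V1 sector. Of 9 V1 genes tested, 7 were called higher and 1 lower, the median log2 fold change was 1.18, and 5 rose at least 2-fold, which 12.8% of all genes did. With total-count scaling the A, B2, C1, D, E1 and H subunits were still called higher, F was not called (0.041), and both G subunits were called lower. Without CLP replicate 1 the same 7 genes had log2 fold changes of 0.52 to 1.89, all called.

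Atp6v1a (ENSMUSG00000052459) encodes subunit A, which holds the catalytic sites for ATP. It was at 639.7, 871, 765 and 784 CPM in the 4 CLP libraries and at 302, 249, 199 and 235 CPM in the Sham libraries, and the groups were far apart. This was a rise of 1.63 ± 0.15 on the log2 scale (mean ± SE, edgeR adjusted p = 1.4e-05), or 3.10-fold, and of 1.08 with total-count scaling. Its partner in the catalytic head, subunit B2 (Atp6v1b2, ENSMUSG00000006273), reached 443, 661, 855 and 628 CPM in CLP against 285, 296, 255 and 258 CPM in Sham. The CLP libraries spread widely, with replicate 1 lowest and replicate 3 highest, and none overlapped Sham. Its log2 fold change was 1.24 ± 0.18 (edgeR adjusted p = 2.2e-04). The other B isoform, Atp6v1b1, known from kidney and inner ear, had no count in any library.

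Among the stalk subunits, Atp6v1e1 (ENSMUSG00000019210), which binds subunit G to form the outer stalks, changed most. Its levels were 294, 378, 351 and 351 CPM in CLP and 106, 100.4, 92.1 and 91.5 CPM in Sham. The groups were far apart and each was tight: the log2 fold change was 1.82 ± 0.12 (edgeR adjusted p = 2.4e-06), a 3.53-fold rise at percentile 94.1 of all genes tested. Atp6v1c1 (ENSMUSG00000022295) encodes subunit C, which links the stalks to the membrane sector and is released when the pump comes apart. It stood at 121, 189, 159 and 181 CPM after CLP and at 71.4, 61.2, 53.6 and 60.3 CPM after sham surgery (log2 fold change 1.40 ± 0.15, edgeR adjusted p = 3.6e-05). Subunit H (Atp6v1h, ENSMUSG00000033793), which keeps free V1 from wasting ATP, gave 125, 174, 159 and 185 CPM in CLP and 73.9, 72.2, 68.9 and 69.4 CPM in Sham. This rise was 1.18 ± 0.13 on the log2 scale (edgeR adjusted p = 3.5e-05). CLP replicate 1 was the lowest CLP library for A, B2, C1, E1 and H alike, and above every Sham library in each. It also had the lowest neutrophil marker sum of the CLP libraries, 201 CPM against 329 to 567 CPM, whose part in these values was not tested. Csf3r alone held 148 CPM of the sum in CLP replicate 1.

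The rotor subunits moved less. Atp6v1d (ENSMUSG00000021114), the shaft, was at 65.1, 77.9, 73.9 and 84.3 CPM in CLP and 44.4, 41.3, 38.7 and 41.2 CPM in Sham, a log2 fold change of 0.86 ± 0.11 (edgeR adjusted p = 7.1e-05) that remained called with total-count scaling (0.31, adjusted p = 0.0191). Atp6v1f (ENSMUSG00000004285), which sits beside D in the rotor, was at 113, 101, 93.5 and 88.2 CPM against 73.1, 67.9, 56.3 and 65.4 CPM (0.59 ± 0.12, edgeR adjusted p = 0.00156; total-count value 0.041, no call). CLP replicate 1 was again the lowest CLP library for Atp6v1d and was the highest for Atp6v1f.

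Subunit G was the exception in the V1 sector. Atp6v1g1 (ENSMUSG00000039105), the widely expressed isoform, overlapped between the groups at 54.2 to 63.8 CPM in CLP and 46.0 to 55.1 CPM in Sham, with a log2 fold change of 0.22 ± 0.10 (edgeR adjusted p = 0.0883) that turned to -0.33 and a call of lower with total-count scaling. It was called higher with the size factors of DESeq2 (0.28, adjusted p = 0.0405). Atp6v1g2 (ENSMUSG00000024403), known mainly from neurons, was scarce at 1.12, 1.57, 0.962 and 2.24 CPM in CLP and 2.32, 2.29, 3.12 and 2.69 CPM in Sham. It was called lower (-0.82 ± 0.29, edgeR adjusted p = 0.0339), but leaving out CLP replicate 1, 2 or 3 or Sham replicate 1, 3 or 4 brought the adjusted p to between 0.0511 and 0.0901. Its exons share 144 bases with Nfkbil1 on the opposite strand, which had 489 counts in CLP and 989 in Sham.

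**Figure D2:**
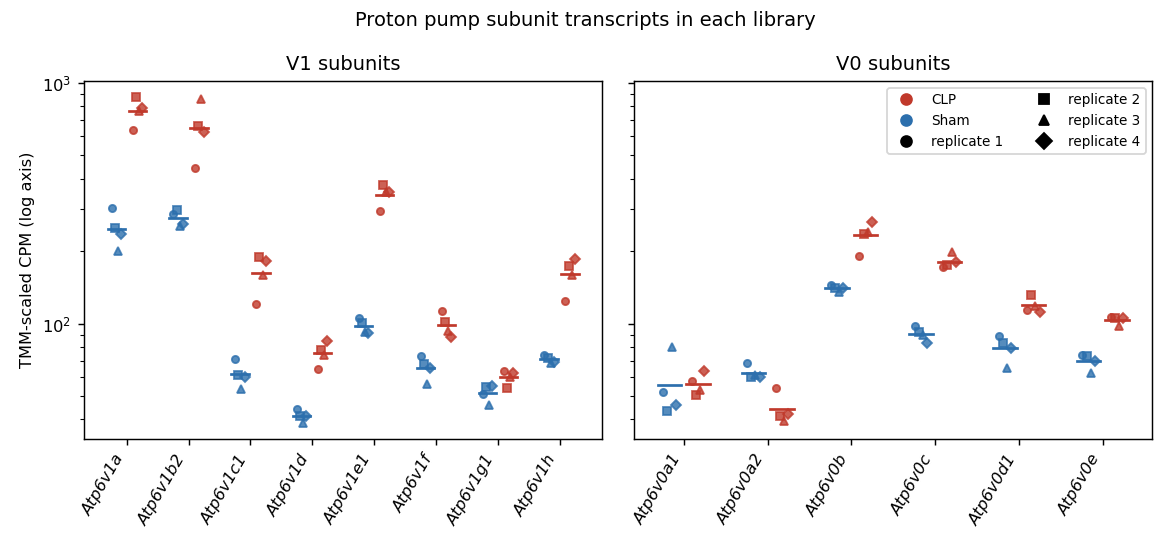
TMM-scaled CPM on a log axis of 8 V1 and 6 V0 subunit genes in each of the 8 libraries, with a bar at each group mean and a symbol for each replicate. The V1 genes Atp6v1a, Atp6v1c1 and Atp6v1e1 show the widest gaps between Sham and CLP, while Atp6v0a1 overlaps and Atp6v0a2 is lower after CLP.

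In the membrane sector the changes were mostly smaller and mixed, though Atp6v0c (1.00) rose more than the V1 genes Atp6v1d (0.86) and Atp6v1f (0.59). Of 8 V0 genes tested, 4 were called higher (Atp6v0b, Atp6v0c, Atp6v0d1 and Atp6v0e), 1 lower (Atp6v0a2) and 3 neither, and the median log2 fold change was 0.30. The 3 include Atp6v0d2 and Atp6v0e2, which lay at or below 1.16 CPM in all libraries. These counts and the median leave out Tcirg1, the gene of subunit a3. It was called higher with TMM scaling (0.87) and not called with total-count scaling (0.30). With total-count scaling Atp6v0c alone was called higher, and Atp6v0a1, Atp6v0a2 and Atp6v0d2 were called lower.

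Atp6v0c (ENSMUSG00000024121) encodes the proteolipid of the rotating ring. It stood at 172, 174, 198 and 180.1 CPM in CLP and 97.8, 92.5, 89.5 and 83.3 CPM in Sham, with little spread in either group. The log2 fold change was 1.00 ± 0.10 (edgeR adjusted p = 2.1e-05; total-count value 0.44, adjusted p = 0.00202). Part of its reads may have been assigned to processed pseudogenes with near-identical sequence: Atp6v0c-ps2 was at 1.88 to 2.83 CPM in CLP and 0.825 to 1.27 CPM in Sham (1.09 ± 0.25, edgeR adjusted p = 0.00365; total-count value 0.54, no call), and Atp6v0c-ps1 had 11 counts in CLP and 7 in Sham. The split of reads between the gene and its copies is uncertain. Atp6v0b (ENSMUSG00000033379), the c″ subunit of the same ring, was at 191, 237, 241 and 265 CPM against 144, 141, 135 and 141 CPM (0.73 ± 0.12, edgeR adjusted p = 4.0e-04; total-count value 0.18, no call).

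Atp6v0d1 (ENSMUSG00000013160), which couples the ring to the central stalk, was at 112 to 132 CPM in CLP and 65.2 to 88.4 CPM in Sham, and Atp6v0e (ENSMUSG00000015575), a small membrane subunit, at 97.7 to 107 CPM and 62.2 to 74.1 CPM. Neither pair of ranges overlapped. Their log2 fold changes of 0.59 ± 0.12 and 0.57 ± 0.10 (edgeR adjusted p = 0.00151 and 5.6e-04) shrank to 0.040 and 0.018 with total-count scaling, without a call. The rarer isoforms Atp6v0d2, known from osteoclasts and macrophages, and Atp6v0e2 lay at or below 1.16 CPM in all libraries, with log2 fold changes of -0.25 ± 0.33 and -0.091 ± 0.35 and no call; with total-count scaling Atp6v0d2 was called lower (-0.79, adjusted p = 0.0471).

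Subunit a carries the proton path and, through its isoforms, decides in which membrane the pump sits. Atp6v0a2 (ENSMUSG00000038023), the isoform of the Golgi and endosomes, was lower after CLP, at 53.8, 41.5, 39.5 and 42.0 CPM against 68.9, 60.2, 61.0 and 59.9 CPM in Sham. All 4 CLP libraries were below all Sham libraries, and the log2 fold change was -0.50 ± 0.12 (edgeR adjusted p = 0.00447), or -1.05 with total-count scaling. Atp6v0a1 (ENSMUSG00000019302) overlapped, at 58.0, 50.7, 52.8 and 63.6 CPM in CLP and 52.0, 43.3, 80.3 and 45.8 CPM in Sham, where replicate 3 was above every CLP library (0.024 ± 0.19, edgeR adjusted p = 0.923; total-count value -0.54, a call of lower). The lysosomal a3 isoform bears the symbol Tcirg1 and so falls outside the naming rule. It was the most abundant a isoform by counts, at 255, 371, 369 and 515 CPM in CLP and 194, 184, 266 and 185 CPM in Sham, and was called higher (0.87 ± 0.21, edgeR adjusted p = 0.00489) although CLP replicate 1 lay below Sham replicate 3; with total-count scaling it was not called (0.30, adjusted p = 0.230).

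Summed over genes, V1 transcripts took 0.191 ± 0.0236% of library counts in CLP and 0.110 ± 0.00549% in Sham (SD, n = 4), while V0 transcripts took 0.0609 ± 0.00260% and 0.0605 ± 0.00231%. The ratio of V1 to V0 counts within a library, which no scaling between libraries can move, was 2.68, 3.38, 3.36 and 3.07 in CLP and 1.91, 1.91, 1.65 and 1.83 in Sham. Every CLP library had a higher ratio than every Sham library, with replicate 1 the lowest of the CLP libraries. No p-value is given for a sum over genes picked with results known. Tcirg1 is in neither sum, although it had more counts in each library than any V0 gene in the sum. Its counts were 6117, 7088, 8059 and 10562 in CLP and 6363, 6028, 7922 and 6054 in Sham. A ratio with Tcirg1 among the V0 genes would be lower in both groups and was not computed. Of the V1 share, Atp6v1a and Atp6v1b2 took 0.0630% and 0.0533% of library counts in CLP and 0.0297% and 0.0331% in Sham.

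**Figure D3:**
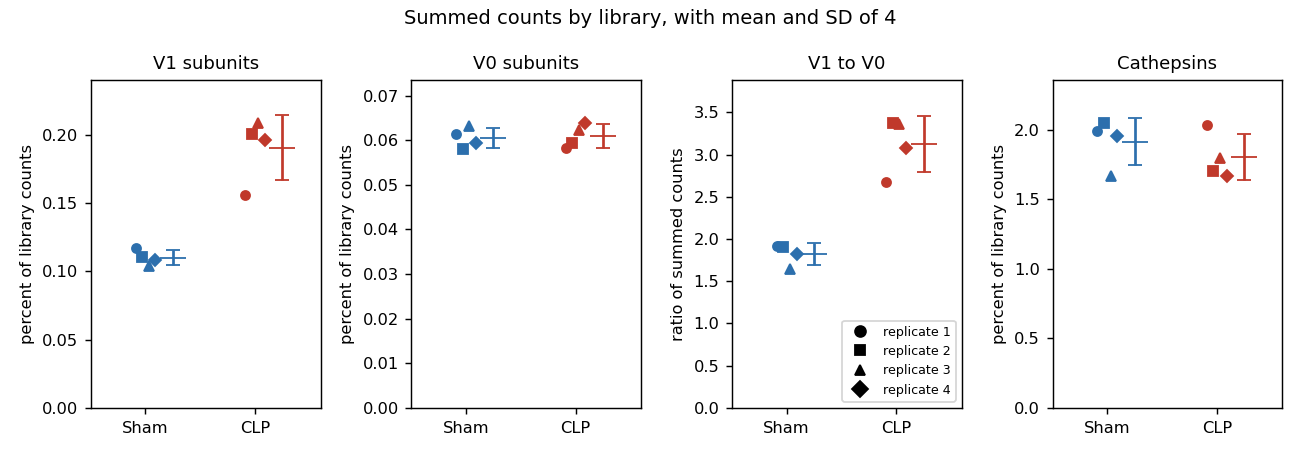
Percent of each library's counts taken by V1, V0 and cathepsin genes, and the ratio of V1 to V0 counts, with symbols for replicates and the mean and SD of 4 libraries beside them; all axes start at 0. V1 shares are 0.156 to 0.209% in CLP and 0.104 to 0.117% in Sham, whereas the V0 and cathepsin shares overlap between the groups.

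Pairs of related genes were compared as a ratio within each library, which also does not depend on the scaling. Most were isoforms of 1 subunit, and the others paired Atp6ap1 with Atp6ap2 and Lamp1 with Lamp2. The pairs come from members and lists chosen with earlier results of these data known, so their p-values are descriptive only. Of 10 pairs listed, 7 had both genes tested, and 5 of these were fully apart between the groups, the smallest p that 4 against 4 libraries allow (exact permutation test, two-sided, p = 0.0286, adjusted p = 0.04 over the 7 pairs). Of all single genes tested, 22.1% were higher and 27.3% lower in CLP without overlap. The share of fully apart ratios among other gene pairs was not computed, so the count describes these pairs only. The 3 pairs not tested were those of B1 with B2, C2 with C1 and E2 with E1, whose tissue-restricted partner had no count.

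The counts of Atp6v1g1 exceeded those of Atp6v1g2 by 42.2 times in CLP and 19.8 times in Sham (geometric means), a log2 difference of 1.09. Atp6v0d1 exceeded Atp6v0d2 by 153 times in CLP and 87.4 times in Sham (log2 difference 0.81). For subunit a the balance moved from a1 to a3: there were 0.153 counts of Atp6v0a1 for each of Tcirg1 in CLP and 0.262 in Sham (log2 difference -0.78). Between a1 and a2 the log2 difference was 0.57, with Sham replicate 3 among the CLP values (exact permutation test, two-sided, p = 0.0857, adjusted p = 0.0857). That between e and e2 was 0.68, with CLP replicate 1 among the Sham values (exact permutation test, two-sided, p = 0.0571, adjusted p = 0.0667).

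**Figure D4:**
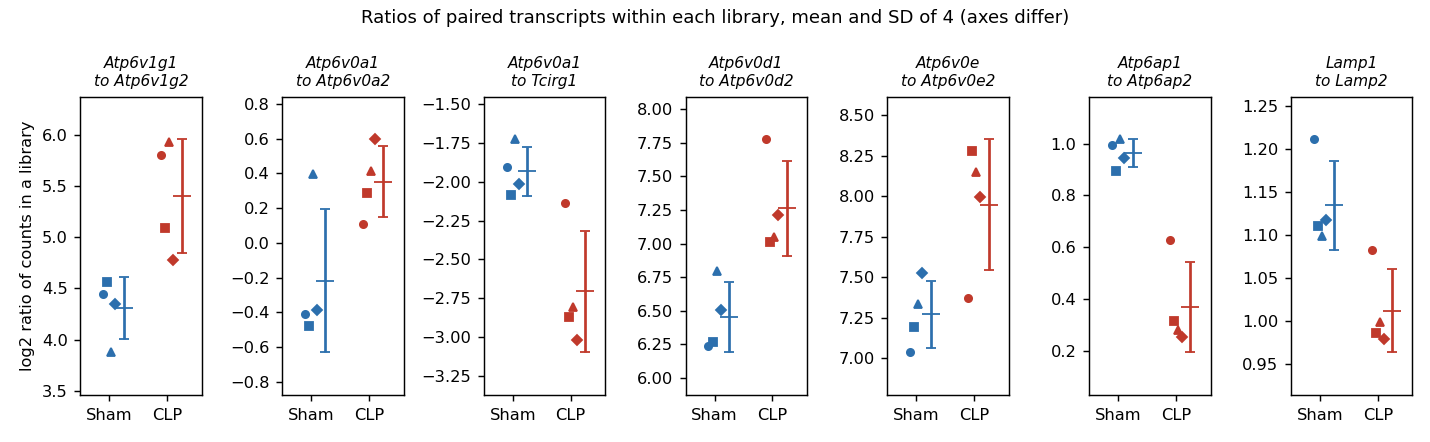
Log2 ratio of the counts of 2 related genes in each library, with 0.5 added to each count, for the 7 pairs tested; symbols are replicates, bars the mean and SD of 4, and each panel has its own axis. The groups are apart in 5 panels and overlap for Atp6v0a1 to Atp6v0a2 and for Atp6v0e to Atp6v0e2.

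Both accessory proteins of the pump were called higher with TMM scaling. Atp6ap2 (ENSMUSG00000031007), the prorenin receptor, which is needed for the pump's assembly, rose from 168, 164, 124 and 154 CPM in Sham to 282, 326, 290.4 and 299 CPM in CLP (0.97 ± 0.12, edgeR adjusted p = 8.9e-05; total-count value 0.42, still called). Atp6ap1 (ENSMUSG00000019087), also called Ac45, was at 435, 404, 353 and 356 CPM in CLP and 336, 305, 250.5 and 297 CPM in Sham (0.38 ± 0.13, edgeR adjusted p = 0.0254; total-count value -0.17, no call). Without CLP replicate 2 or Sham replicate 2, 3 or 4 the latter missed the threshold (adjusted p = 0.0590 to 0.0688), as it did without a filter on low counts (0.0824). Counts of Atp6ap1 were 1.95 times those of Atp6ap2 in Sham and 1.29 times in CLP, and every CLP ratio was below every Sham ratio (exact permutation test, two-sided, p = 0.0286, adjusted p = 0.04).

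Summed over genes, the cathepsins took far more counts than the pump, though not each cathepsin did, and the fold changes of those tested were small. With TMM scaling 6 of the 11 tested were called higher and none lower (median log2 fold change 0.41); with total-count scaling none was called higher, Ctsd, Ctsf, Ctsh and Ctso were called lower, and the median was -0.14. As a share of library counts the 18 named cathepsins took 1.80 ± 0.166% in CLP and 1.92 ± 0.172% in Sham (SD, n = 4), ranges that overlap. The tested cathepsins changed sign with the scaling, except Ctsz (0.69 with TMM, 0.14 with total counts, no call). Beside the cathepsin medians of 0.41 and -0.14, those of the Kupffer cell markers were 0.35 and -0.20, and their part in the cathepsin values was not tested.

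Ctsb (ENSMUSG00000021939), a cysteine protease with both endopeptidase and dipeptidase action, was the most counted member of all. It was at 11951, 10797, 10934 and 10109.5 CPM in CLP and 8359.5, 8305, 6224 and 7517 CPM in Sham, and made up 50.1 ± 0.724% of cathepsin counts in CLP and 47.9 ± 0.666% in Sham. Its log2 fold change was 0.53 ± 0.13 (edgeR adjusted p = 0.00703), against -0.022 with total-count scaling. Ctsb, Ctss, Ctsc, Ctsd and Ctsa together held 91.3% of cathepsin counts in CLP and 90.8% in Sham, with overlap between the groups, while the share of Ctsb alone was higher in every CLP library (49.1 to 50.6%) than in any Sham library (47.4 to 48.8%).

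Ctsz (ENSMUSG00000016256), a carboxypeptidase, had the largest rise of the tested cathepsins with TMM scaling, from 375, 379, 283 and 323 CPM to 541, 545, 567 and 544 CPM (0.69 ± 0.12, edgeR adjusted p = 7.2e-04; total-count value 0.14, no call). Ctsa, a serine carboxypeptidase that also shields other lysosomal enzymes, was nearly even across CLP at 1209.5 to 1239.5 CPM, against 725 to 929 CPM in Sham (0.52 ± 0.11, edgeR adjusted p = 0.00281; total-count value -0.027). Its exons share 495 bases with Pltp on the opposite strand, which had 82141 counts in CLP and 96853 in Sham. Ctsl, an endopeptidase, was at 358 to 419 CPM in CLP and 212 to 312 CPM in Sham (0.50 ± 0.13, edgeR adjusted p = 0.00821; total-count value -0.046).

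Ctsc (ENSMUSG00000030560), the dipeptidyl peptidase that activates granule proteases of neutrophils and lymphocytes, was at 4135, 2971, 2996 and 2884 CPM in CLP and 2481, 2491, 1983 and 2319 CPM in Sham. CLP replicate 1 was well above the other CLP libraries. The log2 fold change was 0.49 ± 0.15 (edgeR adjusted p = 0.0190), 0.35 without that library and -0.063 with total-count scaling; the call was lost without Sham replicate 4 (adjusted p = 0.0536) and with the GC correction (0.0574). Ctss (ENSMUSG00000038642), which trims the invariant chain of MHC class II in antigen-presenting cells, was at 3784, 3468, 3412 and 3100.2 CPM in CLP and 2741, 3077, 1995 and 2579.8 CPM in Sham. The lowest CLP library lay only just above the highest Sham library, and the log2 fold change of 0.41 ± 0.15 (edgeR adjusted p = 0.0392; total-count value -0.14) lost its call when CLP replicate 1, 2 or 3 or Sham replicate 1, 3 or 4 was left out (adjusted p = 0.0515 to 0.0974), with the GC correction (0.0653) and without a filter on low counts (0.0890).

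The 5 remaining cathepsins tested overlapped between the groups and passed no threshold with TMM scaling. Ctsd, the aspartic protease of lysosomes, was at 1267, 1076, 1105 and 965 CPM in CLP and 1082, 1138, 928 and 1057 CPM in Sham. Its log2 fold change was 0.069 ± 0.12 (edgeR adjusted p = 0.657), and total-count scaling turned it to -0.48 and a call of lower. The aminopeptidase Ctsh was at 733 to 896 CPM in CLP and 555 to 807 CPM in Sham (0.19 ± 0.14), and Ctsf and Ctso, less studied cysteine cathepsins, at 65.9 to 95.1 and 73.4 to 84.1 CPM in CLP and 59.7 to 84.1 and 56.9 to 80.1 CPM in Sham (0.096 ± 0.14 and 0.15 ± 0.12). Ctsk, the collagenase of osteoclasts, did not exceed 1.24 CPM (0.23 ± 0.36).

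Of the 3 other proteins, Lamp2 (ENSMUSG00000016534), a membrane glycoprotein needed for autophagy, was at 884, 862, 828 and 769 CPM in CLP and 604, 633, 468 and 586 CPM in Sham. Its log2 fold change was 0.54 ± 0.12 (edgeR adjusted p = 0.00374), with a total-count value of -0.0059. Lamp1 (ENSMUSG00000031447), its abundant relative, was at 1872, 1708, 1654 and 1517 CPM against 1399.9, 1368, 1003 and 1272 CPM (0.42 ± 0.14, edgeR adjusted p = 0.0235; total-count value -0.13), and lost its call when CLP replicate 2 or Sham replicate 4 was left out (adjusted p = 0.0534 and 0.0644) or no filter on low counts was used (0.0623). Within libraries the ratio of Lamp1 to Lamp2 was 2.02 in CLP and 2.20 in Sham, a small difference without overlap (exact permutation test, two-sided, p = 0.0286, adjusted p = 0.04). Lgals3 (ENSMUSG00000050335) encodes galectin-3, which binds sugars exposed when lysosomes are damaged. It was at 302, 252, 267 and 277 CPM in CLP and 193, 217, 183 and 196 CPM in Sham (0.47 ± 0.11, edgeR adjusted p = 0.00342; total-count value -0.077).

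Levels of different genes can be set side by side only per length, as RPKM, the scaled CPM divided by the exon length in kilobases. In Sham, Ctss led with 1913 ± 333 RPKM, followed by Ctsb with 1256 ± 165 RPKM (SD, n = 4), and these did not overlap. Lamp1 (471 ± 67.3), Ctsd (447 ± 37.8) and Ctsc (399 ± 40.8) came next and overlapped their neighbours, then Ctsz (236 ± 31.7), Ctsa (180.3 ± 18.6) and Ctsh (157 ± 24.0). The best represented pump genes were Atp6ap1 (98.2 ± 11.7 RPKM), Atp6v0b (68.5 ± 1.84) and Atp6v1f (61.8 ± 6.59), of which the latter pair overlapped. Subunits A and B2, present in equal number in the pump, were at 40.8 ± 7.02 and 51.6 ± 3.81 RPKM in Sham and at 127 ± 15.8 and 122 ± 31.8 RPKM in CLP. Of the tested V1 genes other than Atp6v1g2, the lowest were Atp6v1h, with 7.29 ± 0.244 RPKM in Sham and 16.5 ± 2.70 RPKM in CLP, and Atp6v1d, with 8.99 ± 0.510 and 16.4 ± 1.75 RPKM. Transcript length and isoform use differ between genes, so small gaps in this order carry little weight.

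**Figure D5:**
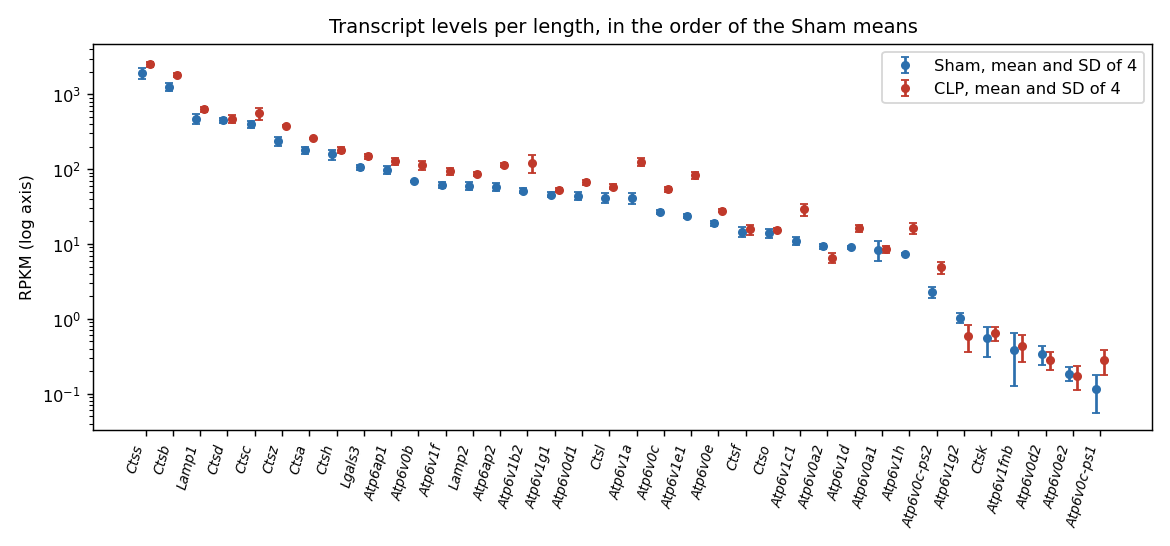
RPKM on a log axis of the 36 members with a Sham mean of at least 0.1 RPKM, in the order of that mean, with the mean and SD of 4 libraries per group. Ctss and Ctsb lead in both groups, and Atp6v1e1 moves from 23.7 to 83.6 RPKM.

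The 7 members with too few counts to test included isoforms known from other tissues. The renal a4 isoform Atp6v0a4 had 2 counts in CLP and 0 in Sham, and the kidney and epididymis isoform Atp6v1g3 1 in each group. Ctse, an aspartic protease, had 27 counts in CLP, of which 17 were in replicate 4, and 9 in Sham. Ctsw, a cathepsin of NK cells and cytotoxic T cells, had 17 and 7. Ctsj, a cathepsin of the rodent placenta, had 1, 5, 14 and 6 counts in the CLP libraries and 1, 0, 1 and 1 in Sham, a scaled ratio of 13 with an exact 95% interval of 3.98 to 67.1 that covers counting error only. Atp6v1fnb, named after its neighbour Atp6v1f and no pump subunit, had 25 counts in CLP and 33 in Sham. No count at all was found for Atp6ap1l, Atp6v1b1, Atp6v1c2, Atp6v1e2, for Ctsg, a protease of neutrophil granules, or for the placental cathepsins Ctsm, Ctsq and Ctsr, which allows each a level of up to 0.0914 to 0.157 CPM per library (3 counts).

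Genes around these members in the lysosome were read from 7 lists, whose counts stand against 24.9% of all genes called higher and 29.5% lower (11.7% and 56.6% with total-count scaling). Of the 14 tested genes that form part of the pump, assemble it or regulate it and lie outside the naming rule, 4 were called higher and 4 lower (median log2 fold change -0.047; 2 higher and 9 lower with total-count scaling), shares near those of all genes. The a3 subunit gene Tcirg1 is counted in this list, among the higher calls with TMM scaling. The assembly factor Vma21 rose, with a log2 fold change of 1.33 ± 0.14, as did Dmxl2, a subunit of the complex that rejoins V1 and V0, with 1.09 ± 0.16, and both remained called with total-count scaling (0.78 and 0.54). Among genes of this list outside the rule for named genes, Dmxl1 rose (0.84) and Ccdc115 fell by 0.41. Tmem199, Wdr7 and Rogdi had no call (-0.16, -0.10 and -0.035). With total-count scaling Dmxl1 was not called (0.28), and Ccdc115, Tmem199, Wdr7 and Rogdi were called lower. Oxr1 and Tldc1, of a protein family known to bind the pump, fell by 0.82 and 1.73 on the log2 scale (edgeR adjusted p = 1.3e-04 and 1.9e-05). Cathepsin inhibitors had 5 of 8 tested genes higher and none lower (median 0.96; 3 higher with total-count scaling). Among them Cstb, cystatin B, went from 36.4, 34.4, 28.8 and 34.8 CPM in Sham to 92.9, 115, 133 and 138 CPM in CLP (1.83 ± 0.14, edgeR adjusted p = 5.4e-06; total-count value 1.28, called), with no overlap, and Slpi, a serine protease inhibitor also made by neutrophils, from 0.116 ± 0.106 to 2.75 ± 1.58 CPM (SD, n = 4).

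The MiT/TFE factors and the nutrient sensing genes of the lysosome had 10 of 19 tested genes called higher and 4 lower (median 0.43; 5 and 8 with total-count scaling). Tfeb, a MiT/TFE factor known to drive lysosomal genes, was at 5.74, 4.71, 5.68 and 6.73 CPM in CLP and 24.1, 33.7, 39.0 and 29.8 CPM in Sham. It fell by 2.47 on the log2 scale (edgeR adjusted p = 3.8e-06). Tfec, its relative in macrophages, rose to 406, 797, 747 and 763 CPM from 162, 149, 180.4 and 141 CPM (2.10 ± 0.21, edgeR adjusted p = 1.9e-05; total-count value 1.54). The other 2 genes of the family, given to complete it and not by the rule for named genes, were Mitf, at 103, 224, 219 and 257 CPM against 79.8, 69.5, 70.4 and 60.3 CPM (1.52 ± 0.24, edgeR adjusted p = 4.0e-04; total-count value 0.97), and Tfe3 (0.43 ± 0.13, edgeR adjusted p = 0.0148; total-count value -0.12, no call). For both Tfec and Mitf, CLP replicate 1 was the lowest CLP library and above all of Sham. Lamtor3, of the complex that anchors mTORC1 to the lysosome, rose (1.33 ± 0.14); of the other subunits of that complex, which the naming rule did not choose, Lamtor5 rose (0.36 ± 0.11; total-count value -0.19, no call), Lamtor1 and Lamtor4 fell by 0.44 and 0.60, and Lamtor2 was at -0.036 with no call. Zkscan3, a zinc finger protein known as a repressor of lysosomal genes, fell by 1.07.

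Other enzymes of the lysosome did not move as a block. Of 41 lysosomal hydrolases outside the cathepsins, 12 were called higher and 6 lower, with a median of 0.18 (2 and 25 with total-count scaling), and the higher calls were about as frequent as over all genes. Alpha-galactosidase A (Gla, 2.15 ± 0.23) and the phosphatase Acp5 (1.73 ± 0.16) rose, whereas the sulfatase Sgsh and the hyaluronidase Hyal2 fell by 1.59 and 2.42. Among 29 membrane proteins and transporters 14 were called higher and 6 lower (median 0.40; 7 and 13 with total-count scaling). The tetraspanin Cd63 went from 1.51 ± 0.573 to 35.6 ± 15.2 CPM (SD, n = 4), and the amino acid transporters Slc38a9 and Slc36a1 fell by 0.83 and 1.97. In delivery of hydrolases 7 of 16 were called higher and 3 lower (median 0.26; 2 and 8 with total-count scaling), with both mannose 6-phosphate receptors higher (Igf2r 1.61 ± 0.15, M6pr 0.85 ± 0.14; 1.06 and 0.30 with total-count scaling, both called) and Nagpa and Cln8 lower (-0.37 ± 0.10 and -1.42 ± 0.18). Of 10 galectins and sensors of lysosomal damage besides Lgals3, 7 were called higher and 1 lower (median 0.59; 2 and 3 with total-count scaling), led by the ubiquitin ligase Trim16 (4.03 ± 0.29) and the lipid kinase Pi4k2a (1.96 ± 0.23), while the gut galectin Lgals4 fell by 1.32 from 1.93 CPM.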

How the data were processed

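Counts per gene of 8 libraries, 4 CLP and 4 Sham, were used as deposited, whole numbers with no normalization. Per the labels' protocols, RNA came from the Aurum Total RNA kit and libraries from the TruSeq stranded kit, sequenced on an Element AVITI. The submitters' processing notes name FastQC, STAR 2.7.10b, featureCounts, DESeq2 and the build mm39; neither annotation release nor strand setting is stated (not given in the sources used here). Symbols (52081 of 55414 IDs, 99.8% of counts), exon lengths and GC content were taken from GENCODE M21, on the earlier build GRCm38, so no gene coordinates are printed.

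The test was the robust quasi-likelihood F-test of edgeR 4.0.16 (R 4.3.3) on the 14655 genes kept by filterByExpr, with TMM factors, Benjamini-Hochberg adjustment and a threshold of 0.05. As SE of a fold change on the log2 scale the change divided by the square root of F is given. RPKM was computed from TMM-scaled counts and merged exon lengths. Pair ratios, with 0.5 added to each count, were compared by exact permutation with scipy 1.17.1. The scripts were tested on simulated data. Alternatives were other scalings and filters, DESeq2 1.42.0, limma 3.58.1 voom, a GC correction (99.6% of genes had a value), the replicate number as a block, and leaving out each library.

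Every member was to be named, and from each list around them the 2 genes with the smallest p in each direction past the threshold; a gene that this rule chose among the membrane proteins is not reported here. The members and lists were chosen with earlier results of these data known. Of 34 members tested, 10 share exon bases with a gene on the opposite strand and 2 with a gene on the same strand.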

Additional observations from a re-analysis of the deposited data

Results flagged for a closer look

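In 4 of 68 groups of 4 libraries, 1 library lay further from the others than Dixon's criterion allows at the 95% level; chance gives about 1 in 20 such groups. Ctsc was at 4135 CPM in CLP replicate 1 and at 2884 to 2996 CPM in the other CLP libraries. Atp6v0a2 stood at 68.9 CPM in Sham replicate 1 against 59.9 to 61.0 CPM in the other Sham libraries. In CLP replicate 3, Atp6v0e was lower than in the other CLP libraries, at 97.7 CPM against 105.6 to 107 CPM, and Ctsz higher, at 567 CPM against 541 to 545 CPM.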

How the results depend on the processing

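Total-count scaling was the setting that changed most. With it 1715 genes were called higher and 8292 lower (3644 and 4319 with TMM; 17.1% and 45.8% of calls upward), and 8 members higher and 9 lower in place of 23 and 2. V1 genes then had 2 lower, V0 genes 1 higher and 3 lower, and cathepsins 0 higher and 4 lower. The log2 fold change turned negative for Atp6v0a1 (-0.54), Atp6v1g1 (-0.33), Atp6ap1 (-0.17), Ctsa (-0.0275), Ctsb (-0.0223), Ctsc (-0.063), Ctsd (-0.48), Ctsf (-0.45), Ctsh (-0.36), Ctsk (-0.34), Ctsl (-0.046), Ctso (-0.40), Ctss (-0.14), Lgals3 (-0.077), Lamp1 (-0.13) and Lamp2 (-0.0059), since this scaling lowers every value by about 0.56. No other setting reversed a called gene. Without a filter on low counts Atp6v0a1 was at -0.0291. With 1 library left out, 4 genes without a call crossed 0: Atp6v0a1 ranged from -0.062 to 0.26 (negative without CLP replicate 4 or Sham replicate 2 or 4), Atp6v0e2 from -0.37 to 0.048 (positive without CLP replicate 2 or 3 or Sham replicate 1), Ctsd from -0.0025 to 0.14 and Ctsf from -0.0053 to 0.18 (both negative without CLP replicate 1). Leaving out each library gave 3244 to 4235 genes higher and 3716 to 4997 lower, 19 to 23 members higher and 1 to 2 lower, V1 genes 7 higher and 0 to 1 lower, V0 genes 4 higher and 1 lower, and cathepsins 4 to 6 higher and 0 lower. With the GC correction 21 members were higher and 2 lower; Ctsc (adjusted p = 0.0574) and Ctss (0.0653) lost their call. Without a filter Ctss (0.0890), Atp6ap1 (0.0824) and Lamp1 (0.0623) did. The stricter filter removed 3 members, and DESeq2 and limma voom changed no member's call.

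The replicate numbers were shared by both groups, but same-numbered libraries did not deviate together (correlations over genes of 0.172, -0.125, 0.126 and -0.0853), and no library correlated best with its own number. With the replicate block 3491 genes were higher and 4303 lower, and no member's call changed. Pair ratios kept their direction in every setting run. With a library left out they are values without a test, since 4 against 3 libraries can reach no p under 0.0571, and likewise paired by number, where 0.125 is the limit. Counts of a few per library limit what can be said of the members below 1 CPM.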
